A study of Mus musculus with 61 samples.

Results

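Kinesin and dynein motor genes were followed in sorted retinal cells of DBA/2J and D2-Gpnmb+ mice. The members were all genes of the expression table whose symbol starts with Kif and a digit, or with Klc, Dync, Dynl or Dctn. The rule found 53 of 15149 genes, of which 31 were kinesin heavy chains (Kif), 4 kinesin light chains (Klc), 7 dynein heavy, intermediate and light intermediate chains (Dync), 5 dynein light chains (Dynl) and 6 dynactin subunits (Dctn). Both strains share the DBA/2J background, including its Tyrp1 iris mutation. DBA/2J mice develop pigment dispersion, high eye pressure and glaucoma with age, and D2-Gpnmb+ mice carry a functional Gpnmb allele and serve as controls without glaucoma. The 61 libraries comprised 7 of 9-month DBA/2J given nicotinamide at 500 mg per kg per day, 25 of 9-month DBA/2J on water, 9 of 9-month D2-Gpnmb+ on water, 10 of 4-month DBA/2J on water and 10 of 4-month D2-Gpnmb+ on water. Nicotinamide is a form of vitamin B3 and a precursor of NAD. All retinas came from eyes whose optic nerves showed no axon loss, per the labels, and sorting kept Thy1.2-bearing cells that were free of GFAP and of the surface markers Cd11b, Cd11c, Cd34 and Cd45.2.

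Kinesins and cytoplasmic dynein are the ATP-driven motors that move cargo along microtubules. Most kinesins walk towards the plus end, which in an axon means away from the cell body, and dynein with its activator dynactin walks back. Retinal ganglion cells depend on both over the length of the optic nerve, photoreceptors use kinesin-2 and dynein-2 for transport through the cilium that joins their inner and outer segments, and another group of kinesins builds the spindle of dividing cells.

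RNA of other retinal cell types was present beside that of the labelled ganglion cells. The summed value of 12 ganglion cell markers ran from 70.1 to 194 with nicotinamide, 34.9 to 117 in 9-month DBA/2J on water, 44.5 to 119 in 9-month D2-Gpnmb+, 54.3 to 264 in 4-month DBA/2J and 48.0 to 90.2 in 4-month D2-Gpnmb+. Pou4f1, a defining ganglion cell factor, was at 0 in 1 of 7, 11 of 25, 4 of 9, 1 of 10 and 4 of 10 of these libraries, in the same order. The 11 rod markers summed to between 613 and 68063 over all libraries. The columns of the table formed 3 stretches of 10, 18 and 33 libraries, called blocks 1, 2 and 3 here, a division made after expression values were looked at. Block 3 holds all nicotinamide and 4-month libraries but only 3 of the 25 9-month DBA/2J libraries on water and 3 of the 9 9-month D2-Gpnmb+ libraries. Age and nicotinamide were therefore compared over all libraries and also inside block 3, whose libraries are part of the larger fit. Recovered reads per library ran from 9136453 to 12218457 with nicotinamide, 5133114 to 19501444 in 9-month DBA/2J on water, 7284988 to 14961078 in 9-month D2-Gpnmb+, 5449826 to 11016497 in 4-month DBA/2J and 7062913 to 11309143 in 4-month D2-Gpnmb+. Values in the text are deposited normalised read counts unless given per kb of exon, errors of means are SDs, and errors of log2 fold changes are SEs on log2 of the value plus 1.

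Levels of the motor genes spanned a wide range, with the vesicle motor Kif1a at the top. Per kb of exon and averaged over the 61 libraries, Kif1a, which carries precursors of synaptic vesicles, stood first at 91.1 ± 18.3. Dynlrb1, a roadblock light chain of dynein, followed at 73.9 ± 20.9, and Kif1b, which moves mitochondria and vesicles, at 53.7 ± 8.30. Kif1a and Dynlrb1 did not differ beyond their spread over libraries. Kif21a (38.5 ± 7.66 per kb), a brake on microtubule growth, Kif13a (30.5 ± 8.31 per kb), a carrier of endosomes, Klc1 (28.6 ± 6.59 per kb), the main kinesin light chain, and Kif2a (28.2 ± 8.33 per kb), a microtubule depolymerase, formed a run of neighbours within each other's spread. The chains of cytoplasmic dynein-1 were spread out, with the heavy chain Dync1h1 at 24.2 ± 3.75 per kb and the light intermediate chains Dync1li2 at 16.9 ± 2.77 and Dync1li1 at 4.59 ± 1.21 per kb. Of its intermediate chains, Dync1i2 stood at 5.63 ± 1.30 and Dync1i1 at 0.642 ± 0.713 per kb. Of the 3 kinesin-1 heavy chains, Kif5c, the neuronal form, stood at 21.7 ± 7.07, the ubiquitous Kif5b at 15.5 ± 2.31 and neuronal Kif5a at 7.33 ± 2.61 per kb. The 8 mitotic kinesins lay between 0.172 and 1.42 per kb, with Kif4, a chromosome-binding kinesin that shapes mitotic chromosomes, at the top. Several kinesins outside that list lay in or below the same range, and Kif26b (0.0479 ± 0.0416 per kb) and the cilium-tip kinesin Kif19a (0.0649 ± 0.0862 per kb) were lowest. Members outside the core list that are named for a level were picked after their values were seen.

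Some members were steady over the 61 libraries and some were not. Dctn4, a subunit of the pointed end of dynactin, had a coefficient of variation of 14.4%, Kif5b 14.9% and Kif1b 15.5%. At the other end stood Kif19a at 133%, Kif7, a ciliary kinesin of Hedgehog signalling, at 117%, and Dync1i1, the neuron-enriched dynein intermediate chain, at 111%. For Kif19a the median library held 1 read, so that spread includes counting error. Among the abundant members, Dynll1, a light chain of dynein that also binds many other proteins, varied most, at 44.6%.

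**Figure D1:**
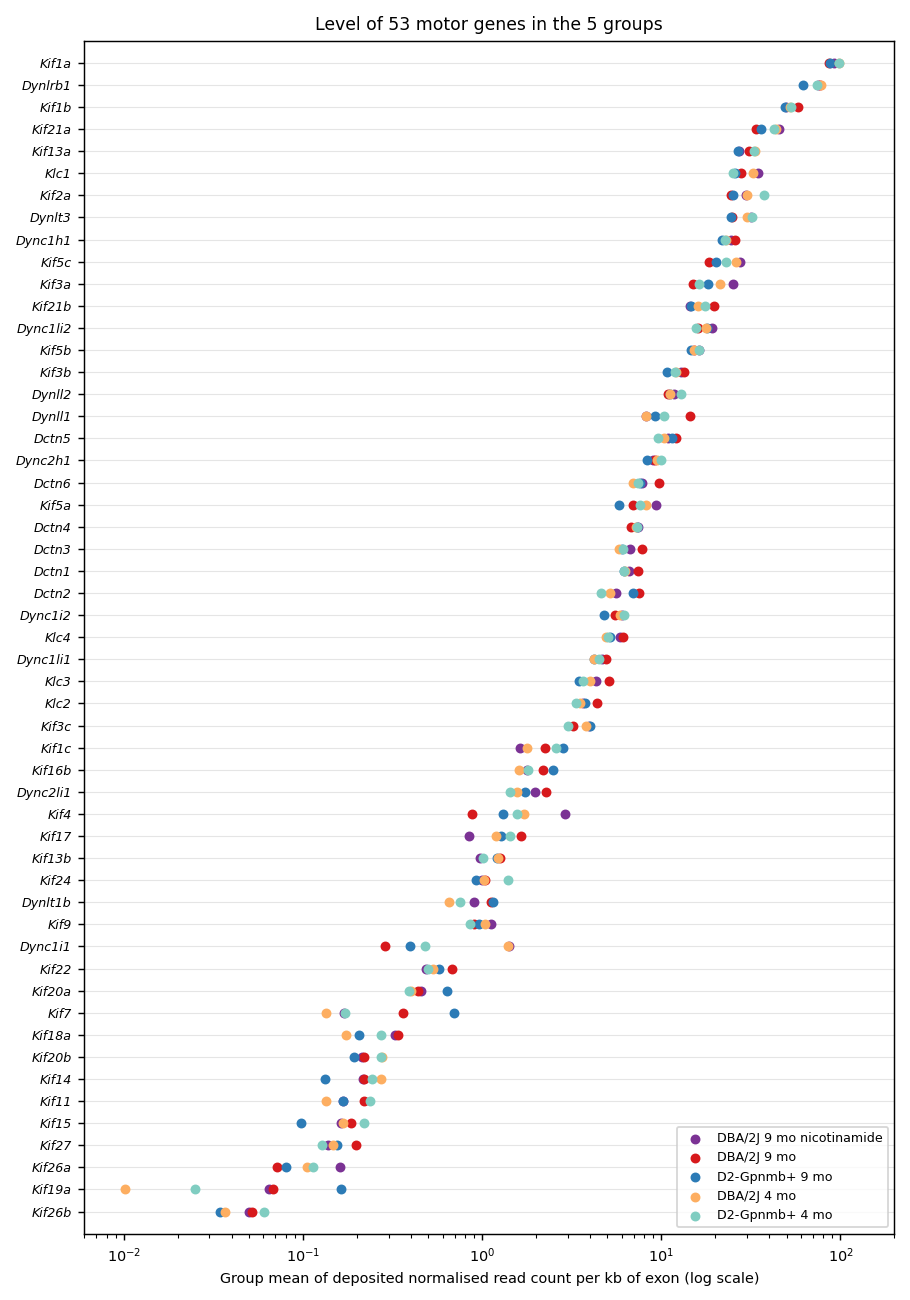
Mean deposited normalised read count per kb of exon (log axis) of the 53 motor genes, one dot per group, sorted by the mean over 61 libraries. Kif1a is at the top with 91.1 per kb and Kif26b at the bottom with 0.0479 per kb, and Dync1i1 and Kif4 have widely spaced dots.

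In DBA/2J on water, 9-month retinas were compared with 4-month retinas to ask what had changed before axons were lost. Dync1i1, the kinesin-1 motor Kif5c, the kinesin-2 motor Kif3a, Kif21a and the mitotic Kif4 were lower at 9 months, and Dynll1, the dynactin subunit Dctn2, the endosome kinesin Kif16b and Kif21b were higher. These 9 of 50 tested members passed an adjusted p of 0.05 (limma), 4 higher and 5 lower, against 22.4% of all 13587 genes tested (9.25% higher and 13.2% lower), so the share of motor genes was no higher than that of genes at large. In GRCm38 coordinates the lower genes are Dync1i1 (chr6:5725639-6028039), Kif3a (chr11:53567379-53601967), Kif5c (chr2:49619298-49774778), Kif21a (chr15:90933276-91049948) and Kif4 (chrX:100625737-100727214). The higher ones are Dynll1 (chr5:115297110-115300999), Dctn2 (chr10:127266368-127281950), Kif16b (chr2:142617474-142901531) and Kif21b (chr1:136131389-136177998). None of the 9 passed within block 3, where 0 of 49 tested members were called (limma, 3 at an unadjusted p under 0.05) against 0.263% of all genes (10.7% at that unadjusted level).

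Dync1i1 ran from 0 to 4.64 with a median of 0.506 in 9-month DBA/2J and from 0.938 to 13.2 with a median of 3.71 in 4-month DBA/2J. The groups overlapped, but 16 of 25 libraries at 9 months lay below the lowest at 4 months, and 5 were at 0. The log2 fold change was −1.48 ± 0.29 (limma, adjusted p 0.000578). The 3 block 3 libraries of 9 months held 0.506, 0.970 and 4.64, and the fold change within block 3 was −0.93 ± 0.58 (limma, adjusted p 0.622). In bulk RNA, fewer cells of a type and less RNA per cell cannot be told apart.

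Kif3a, which with Kif3b forms the motor of intraflagellar transport, ran from 21.8 to 86.8 with a median of 55.4 at 9 months and from 60.3 to 99.8 with a median of 74.7 at 4 months. In 17 of 25 libraries of 9 months it lay below the lowest 4-month library (log2 fold change −0.55 ± 0.15, limma, adjusted p 0.00651). Kif3b had a log2 fold change of 0.06 ± 0.16 and Kif3c, the other partner of Kif3a, of −0.28 ± 0.17, neither past the threshold (limma, adjusted p 0.819 and 0.222). Within block 3 the change of Kif3a was −0.14 ± 0.15 (limma, adjusted p 0.812).

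The value of Kif5c moved with the blocks. It ran from 45.4 to 234 with a median of 135 at 9 months and from 149 to 240 with a median of 188 at 4 months, and 17 of 25 libraries of 9 months lay below the lowest of 4 months. The log2 fold change was −0.61 ± 0.19 (limma, adjusted p 0.0209). The 9-month libraries averaged 69.8 in block 1, 143 in block 2 and 203 in block 3, and within block 3 the change was 0.12 ± 0.13, of the opposite sign and not past the threshold (limma, adjusted p 0.809). The other kinesin-1 heavy chains were not called, with log2 fold changes of −0.33 ± 0.21 for Kif5a and −0.01 ± 0.10 for Kif5b (limma, adjusted p 0.269 and 0.953).

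The related kinesins Kif21a and Kif21b were called in opposite directions. Kif21a ran from 140 to 328 with a median of 219 at 9 months and from 229.5 to 324 with a median of 282 at 4 months, and 15 of 25 libraries of 9 months lay below all of 4 months (log2 fold change −0.38 ± 0.11, limma, adjusted p 0.0104). Kif21b ran from 168 to 404 with a median of 232 at 9 months and from 156 to 219 with a median of 199 at 4 months, and 16 of 25 lay above all of 4 months (0.28 ± 0.10, limma, adjusted p 0.0416). Kif4 had a median of 3.33 at 9 months, with a range of 0.233 to 15.96, and of 10.97 at 4 months, with a range of 1.81 to 14.3 (log2 fold change −0.97 ± 0.32, limma, adjusted p 0.0252). The Kif4 ranges overlapped almost wholly, and 22 of 25 libraries of 9 months lay below the 4-month median. Its 9-month mean was 9.17 in block 1, 2.62 in block 2 and 7.72 in block 3, against 9.38 at 4 months. An exon of Kif4 overlaps Pdzd11 on the other strand, and use of strand in counting is not given in the sources used here.

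Among the higher genes, Dynll1 ran from 28.4 to 96.9 with a median of 55.7 at 9 months and from 26.5 to 39.8 with a median of 31.7 at 4 months. In 16 of 25 libraries of 9 months it exceeded every 4-month library (log2 fold change 0.69 ± 0.18, limma, adjusted p 0.00578). Its 9-month mean was 37.7 in block 1, 67.2 in block 2 and 33.9 in block 3. Its paralog Dynll2 had a log2 fold change of −0.07 ± 0.11 and was not called (limma, adjusted p 0.677). Dctn2, also called dynamitin, had a median of 35.3 at 9 months and 23.9 at 4 months (0.48 ± 0.14, limma, adjusted p 0.0110). Kif16b had a median of 18.5 at 9 months and 14.2 at 4 months (0.38 ± 0.14, limma, adjusted p 0.0400). The calls of Kif16b and of Kif21b were each lost in 13 of 35 fits that left out 1 library. Within block 3 the changes of Dynll1, Dctn2, Kif16b, Kif21b, Kif21a and Kif4 lay between −0.19 and 0.09, none past the threshold.

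Several other quantities differed between the same groups. The amacrine and horizontal cell list of 11 markers summed to between 44.4 and 520 with a median of 95.6 at 9 months and between 133 and 1172 with a median of 507 at 4 months, with 7 of 9 tested members lower and none higher. Onecut1 and Lhx1 of that list were at 0 in 11 and 14 of 25 libraries of 9 months. The Müller glia and astrocyte list of 9 markers ran from 267 to 6340 with a median of 2858 at 9 months and from 815 to 3059 with a median of 1357 at 4 months, with 5 members higher. The microglia list of 8 markers ran from 0 to 168 with a median of 9.75 at 9 months and from 0.279 to 2.01 with a median of 0.842 at 4 months, where C1qa and Cx3cr1 were at 0 in 10 of 10 libraries. The ganglion cell list had a median of 59.5 at 9 months and 104 at 4 months, with 2 of 9 tested members lower, and the cone list had a median of 885 at 9 months and 1349.6 at 4 months, with 2 of 8 lower. The rod list had a median of 8151 at 9 months and 6534.5 at 4 months, with 3 of 11 members higher. The bipolar cell list had a median of 5534 at 9 months and 6657 at 4 months, with 3 of 10 members lower. Within block 3 the median log2 fold change of the Müller glia and astrocyte list was −1.29, against 1.05 over all libraries. That of the cone list was 0.17, against −0.40. Rods had 0.03 against 0.88, amacrine and horizontal cells −0.89 against −2.26, ganglion cells −0.33 against −0.71, and bipolar cells −0.15 against −0.21. No tested member of these lists was called within block 3 (limma), and the microglia markers were too low to be tested there. The part of these cell types in the motor gene differences was not tested. When values were scaled to recovered reads instead, 8 members were called, 2 higher and 6 lower, against 17.4% of all genes, and edgeR's quasi-likelihood test on the reads called 9, 5 higher and 4 lower, against 23.3%.

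**Figure D2:**
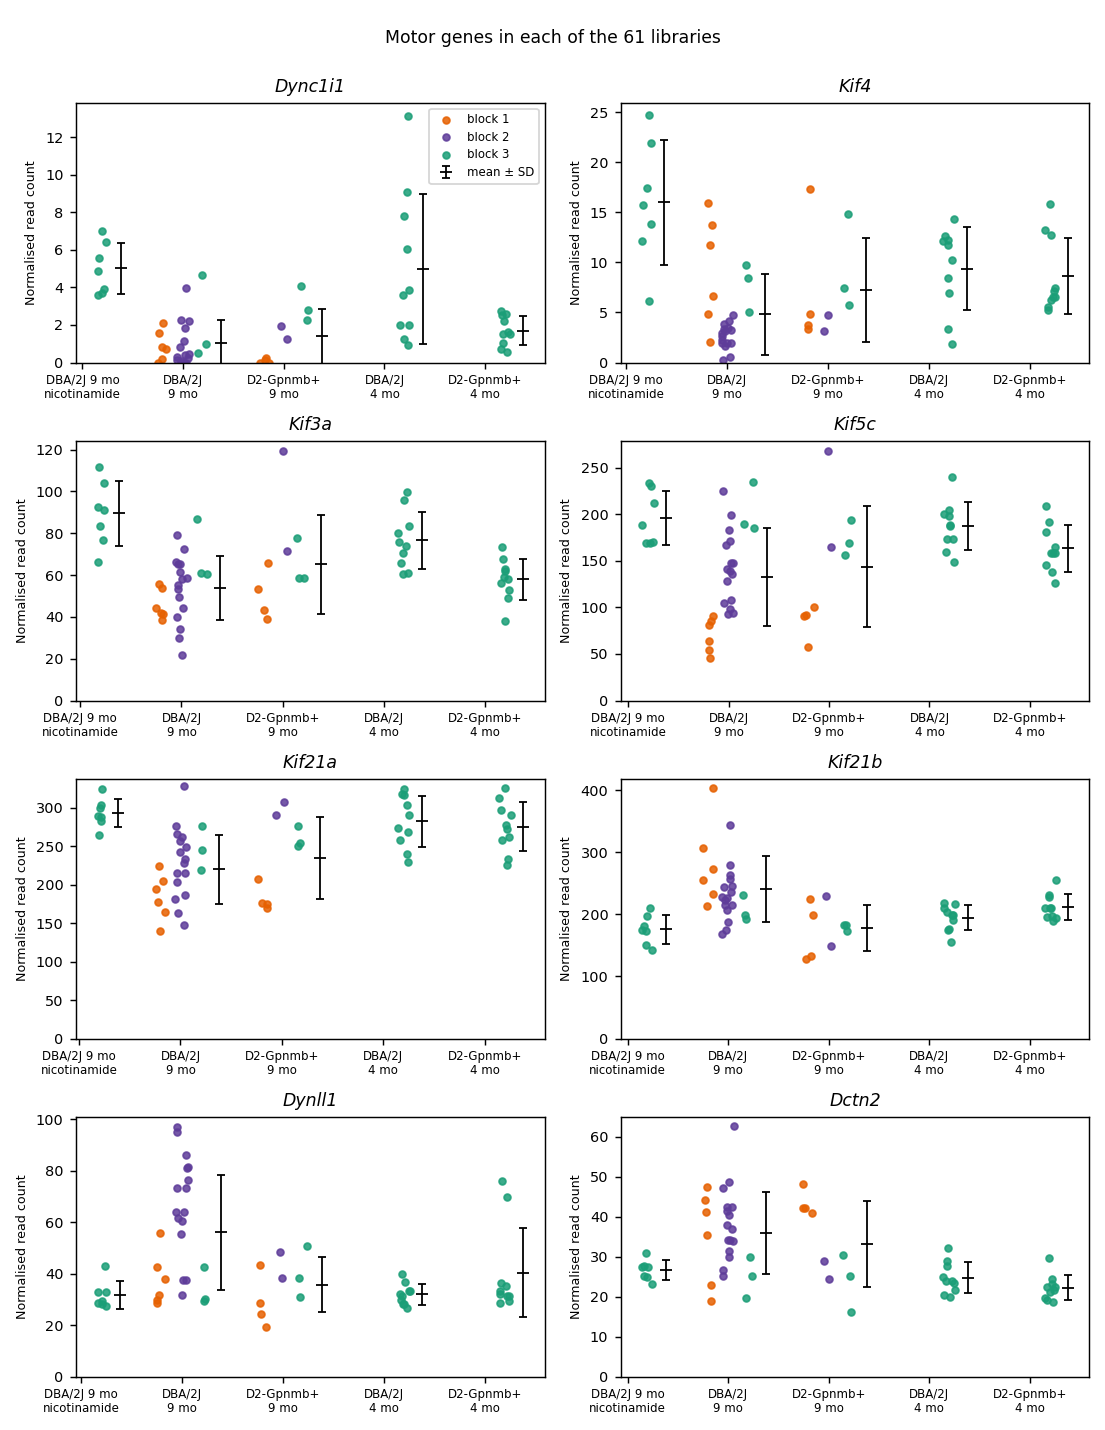
Deposited normalised read count of 8 motor genes in each of the 61 libraries (dots, coloured by column block), with mean and SD of each group beside them. Dynll1 is high in block 2 libraries of 9-month DBA/2J, whose block mean is 67.2, and Kif5c is low in block 1 libraries, with a mean of 69.8.

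Nicotinamide was compared with water in 9-month DBA/2J, the comparison that asks what the treatment changed. Dync1i1, Kif4, Kif3a, Kif21a and Kif5c were higher with nicotinamide and Dynll1 and Kif21b were lower. These 7 of 52 tested members were called (limma), 5 higher and 2 lower, against 15.1% of all 13925 genes (9.78% higher and 5.34% lower), again a share like that of genes at large. The age comparison uses the same 25 libraries of 9-month DBA/2J on water, so a low or high value there moves both comparisons, in opposite directions. Within block 3, 0 of 49 tested members were called (limma, 11 at an unadjusted p under 0.05, against 16.8% of all genes at that level), and 1 of all 13352 genes (0.00749%) was called.

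Dync1i1 held 3.60, 3.68, 3.94, 4.86, 5.58, 6.42 and 7.01 in the 7 nicotinamide libraries, against 0 to 4.64 with a median of 0.506 on water. Every nicotinamide library lay above the water median and 4 lay above the highest water library. The log2 fold change was 1.75 ± 0.29 (limma, adjusted p 0.000188). Within block 3 it was 1.20 ± 0.34 (limma, adjusted p 0.131). There it was called only when the water library that held 4.64, the one nearest the nicotinamide values, was left out. That fit rests on fewer water libraries still, and its share of all genes called is not given here.

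Kif4 ran from 6.13 to 24.7 with a median of 15.7 with nicotinamide and from 0.233 to 15.96 with a median of 3.33 on water (log2 fold change 1.74 ± 0.35, limma, adjusted p 0.00114). Within block 3 the water libraries held 5.04, 8.40 and 9.71, and the change was 0.90 ± 0.34 (limma, adjusted p 0.218). The other 7 mitotic kinesins were not called in the comparison, and the 2 markers of dividing cells in the table, Mki67 and Birc5, summed to between 0.975 and 2.76 with nicotinamide and between 0.522 and 8.58 on water. Depth was low for these genes. The other mitotic kinesins had a median of 12 to 28 reads over all libraries, and Mki67 was at 0 in 1 nicotinamide and 4 water libraries. That they did not pass the threshold does not show that they stayed the same, and a part of dividing cells was not tested.

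Kif3a ran from 66.1 to 112 with a median of 91.1 with nicotinamide and from 21.8 to 86.8 with a median of 55.4 on water, and 4 of 7 nicotinamide libraries exceeded every water library (log2 fold change 0.77 ± 0.17, limma, adjusted p 0.00240). Within block 3 the change was 0.37 ± 0.16 (limma, adjusted p 0.269). Kif21a ran from 265 to 324 with nicotinamide and from 140 to 328 on water (0.44 ± 0.12, limma, adjusted p 0.0145), and its value within block 3 was 0.25 ± 0.10 (limma, adjusted p 0.228). The 7 nicotinamide values of Kif21a lay in the upper part of the water range and none beyond it.

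Kif5c ran from 169 to 233 with a median of 188 with nicotinamide and from 45.4 to 234 with a median of 135 on water (log2 fold change 0.67 ± 0.23, limma, adjusted p 0.0417). Within block 3, where the water libraries held 185, 190 and 234, the change was −0.05 ± 0.13 (limma, adjusted p 0.877), and the call held in 18 of 32 fits that left out 1 library. Dynll1 ran from 27.4 to 43.1 with nicotinamide and from 28.4 to 96.9 on water (−0.71 ± 0.22, limma, adjusted p 0.0239), with −0.09 ± 0.16 within block 3. Its call was lost without nicotinamide replicate 4 or 7. Kif21b ran from 142 to 211 with nicotinamide and from 168 to 404 on water (−0.44 ± 0.12, limma, adjusted p 0.0153), with −0.25 ± 0.12 within block 3, and lost its call without nicotinamide replicate 2. Of the 7 genes, Kif5c was the one whose sign turned within block 3.

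Marker lists moved in this comparison too. The amacrine and horizontal cell list summed to between 205 and 1205.5 with a median of 657 with nicotinamide and between 44.4 and 520 with a median of 95.6 on water, with 8 of 9 tested members higher. None of its 11 markers was at 0 in a nicotinamide library. The ganglion cell list had a median of 126 with nicotinamide and 59.5 on water, with 3 of 10 tested members higher. The cone list ran from 1310.1 to 2639 with nicotinamide and from 366 to 1954 on water, with 7 of 8 members higher. The Müller glia and astrocyte list had a median of 1075 with nicotinamide and 2858 on water, with 4 members lower, and within block 3 its median log2 fold change was 0.92, of the opposite sign. The amacrine and horizontal list kept its sign there, with a median log2 fold change of 1.38 and no member called. The microglia list ran from 0.239 to 1.19 with nicotinamide and from 0 to 168 on water, with 3 of 7 tested members lower. It was too low to be tested within block 3. The bipolar cell list had a median of 4976 with nicotinamide and 5534 on water, with 1 of 10 members higher. Of the 11 rod markers 0 were called. The part of these lists in the motor gene differences was not tested. With values scaled to recovered reads 8 members were called, 7 higher and 1 lower, against 11.6% of all genes.

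**Figure D3:**
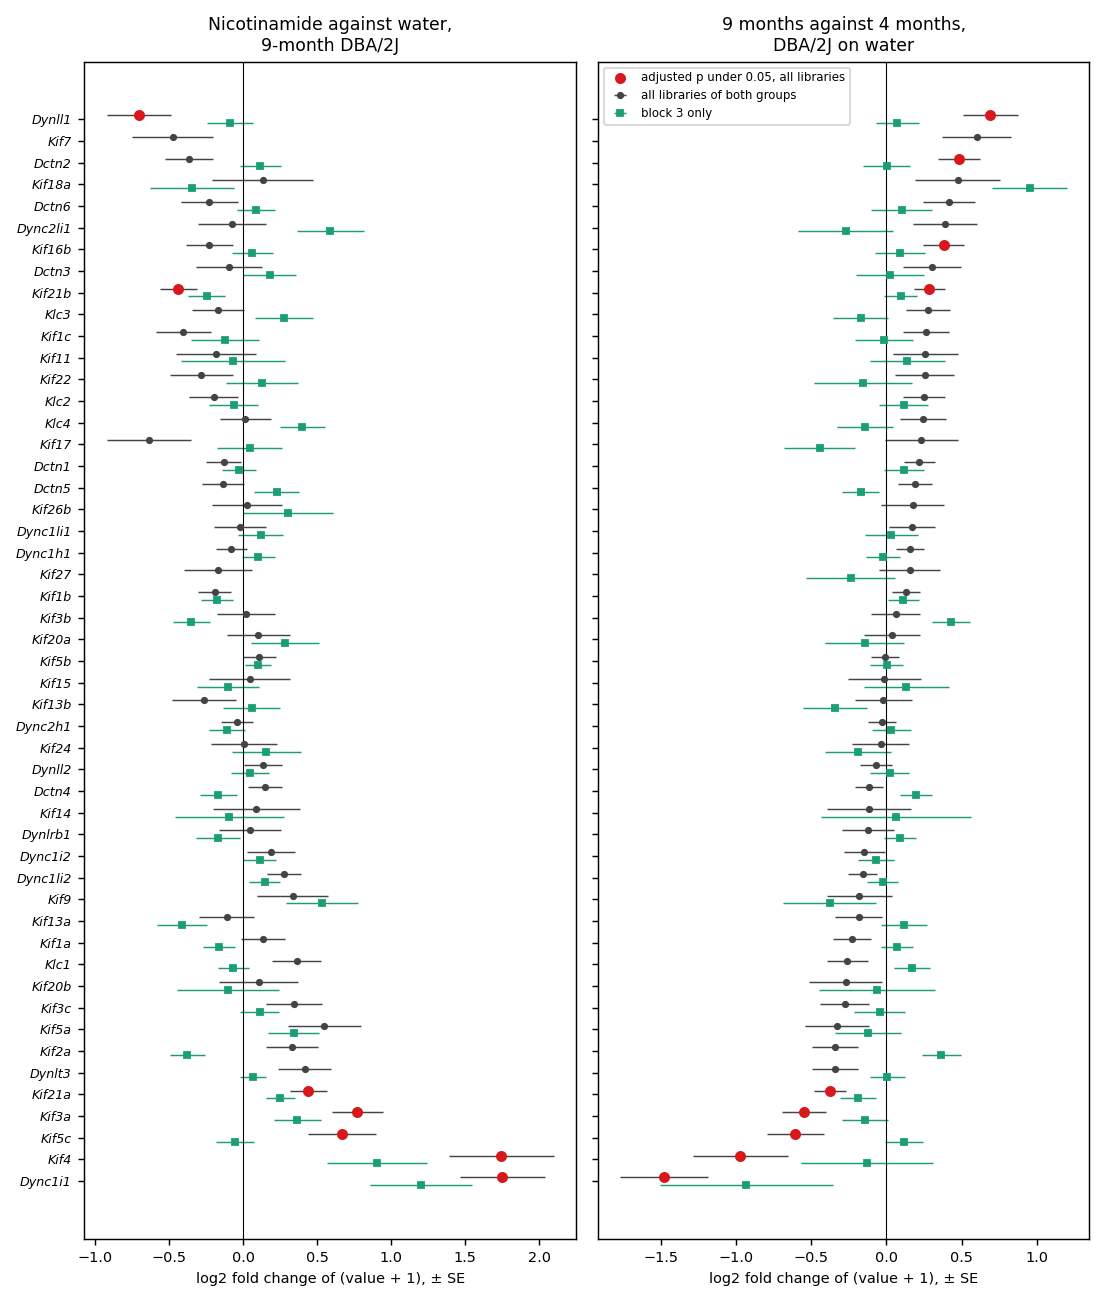
Log2 fold change ± SE of the 50 motor genes tested for age, for nicotinamide against water (left) and 9 against 4 months in DBA/2J (right), in all libraries (circles, red where called) and within block 3 (squares). Both panels use the 25 libraries on water, Dync1i1 lies at 1.75 on the left and −1.48 on the right, and none of the block 3 values passed the threshold.

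Promoters are shown for 4 of the called genes, one each for a dynein intermediate chain, kinesin-2, kinesin-1 and a dynein light chain, because they carry the results above and differ in base composition. Each runs 5′ to 3′ from 250 bases before to 50 after the gene start of RefSeq on GRCm38.p6, and capitals mark matches to the motifs named after them.
Dync1i1, chr6:5725389-5725688, plus strand: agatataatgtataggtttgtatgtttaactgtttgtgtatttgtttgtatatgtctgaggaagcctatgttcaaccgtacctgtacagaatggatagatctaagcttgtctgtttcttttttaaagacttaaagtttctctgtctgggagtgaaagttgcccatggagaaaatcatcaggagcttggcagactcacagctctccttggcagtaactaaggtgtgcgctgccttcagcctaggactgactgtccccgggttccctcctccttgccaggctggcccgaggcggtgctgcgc
Kif3a, chr11:53567119-53567418, plus strand: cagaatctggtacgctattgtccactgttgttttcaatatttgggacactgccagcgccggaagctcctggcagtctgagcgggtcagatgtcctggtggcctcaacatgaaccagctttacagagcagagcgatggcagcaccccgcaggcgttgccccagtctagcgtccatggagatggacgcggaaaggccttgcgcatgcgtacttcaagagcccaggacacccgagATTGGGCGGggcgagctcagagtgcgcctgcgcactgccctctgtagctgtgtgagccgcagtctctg
Kif5c, chr2:49619036-49619335, plus strand: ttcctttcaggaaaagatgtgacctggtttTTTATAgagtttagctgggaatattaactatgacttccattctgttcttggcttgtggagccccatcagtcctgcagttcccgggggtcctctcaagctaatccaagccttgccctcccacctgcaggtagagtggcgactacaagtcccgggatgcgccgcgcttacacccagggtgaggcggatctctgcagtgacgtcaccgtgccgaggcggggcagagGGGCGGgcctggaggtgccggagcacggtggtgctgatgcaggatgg
Dynll1, chr5:115300941-115301240, minus strand: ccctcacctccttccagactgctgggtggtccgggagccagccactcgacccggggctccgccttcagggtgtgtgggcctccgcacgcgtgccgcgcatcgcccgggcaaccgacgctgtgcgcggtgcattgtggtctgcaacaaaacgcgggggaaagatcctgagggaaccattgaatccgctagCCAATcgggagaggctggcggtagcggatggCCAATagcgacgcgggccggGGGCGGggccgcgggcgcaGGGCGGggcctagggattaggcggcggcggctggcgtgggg

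The motifs searched, on both strands, were the CCAAT box (CCAAT), the GC box (GGGCGG), the TATA box (TATAAA) and the E-box (CACGTG). The Dync1i1 window held none of them and had a GC content of 46.7%, the lowest of the 4. The Dynll1 window, at 71% GC, held 2 CCAAT boxes and 2 GC boxes. Kif3a held 1 CCAAT box and 1 GC box that overlaps it, and Kif5c held 1 GC box and 1 TATA box in reverse. Of the 53 members, 40 had a promoter in the RefSeq table, and 28 of these (70%) held a GC box, against 35.9% of 27025 promoters of all genes. A CCAAT box was in 17 (42.5%, against 37.9%), a TATA box in 3 (7.5%, against 14.2%) and an E-box in 1 (2.5%, against 7.24%). These matches describe letters only. The promoters of all genes include genes absent from the expression table, whereas every member is in it, so the shares compare unlike sets.

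Nicotinamide at 9 months was also set against 4-month DBA/2J on water, a comparison that lies wholly in block 3. No motor gene differed past the threshold. Of 48 tested members 0 were called (limma, 6 at an unadjusted p under 0.05), against 1.54% of all 13024 genes and 14.9% at the unadjusted level. EdgeR and DESeq2 called 0 members, against 1.59% and 3.83% of all genes. Dync1i1 averaged 5.01 ± 1.37 with nicotinamide (n = 7) and 4.97 ± 4.00 at 4 months (n = 10), with a log2 fold change of 0.27 ± 0.35 (limma, adjusted p 0.793). Kif5c averaged 196 ± 28.9 with nicotinamide and 187 ± 25.8 at 4 months (0.06 ± 0.09, limma, adjusted p 0.813). Kif3a averaged 89.5 ± 15.7 with nicotinamide and 76.6 ± 13.5 at 4 months (0.22 ± 0.11, limma, adjusted p 0.363). For Dync1i1 the SE exceeds the fold change, and its p does not show that the groups are alike. Kif4 averaged 15.98 ± 6.20 with nicotinamide and 9.38 ± 4.17 at 4 months (0.77 ± 0.34, limma, adjusted p 0.290), and 4 of 7 nicotinamide libraries lay above every 4-month library. The smallest adjusted p belonged to Kif18a, a mitotic motor named after its values were seen, which averaged 3.22 ± 1.52 with nicotinamide and 1.70 ± 0.632 at 4 months (0.61 ± 0.20, limma, adjusted p 0.129). Kif17, the homodimeric kinesin-2, averaged 3.87 ± 0.706 with nicotinamide and 5.50 ± 1.33 at 4 months (−0.40 ± 0.15, limma, adjusted p 0.192).

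At 4 months DBA/2J was compared with D2-Gpnmb+, which asks what the strains differ in before disease, again wholly within block 3. No motor gene passed the threshold, and the nearest was Kif1c, a kinesin-3 of dense-core vesicles, which is named after its values were seen. Of 47 tested members 0 were called (limma, 10 at an unadjusted p under 0.05), against 0.25% of all 12804 genes, and at the unadjusted level 13.5% of all genes passed. EdgeR called 1 member and DESeq2 4, against 0.281% and 1.87% of all genes. Kif1c ran from 10.2 to 15.97 with a median of 13.3 in DBA/2J and from 14.7 to 24.9 with a median of 17.6 in D2-Gpnmb+, and 8 of 10 DBA/2J libraries lay below every D2-Gpnmb+ library. Its log2 fold change was −0.50 ± 0.11 (limma, adjusted p 0.0533). It was called by edgeR (adjusted p 0.0466), by DESeq2 (adjusted p 0.00371), and by limma when DBA/2J replicate 9 or 10 or D2-Gpnmb+ replicate 1 or 9 was left out. With values scaled to recovered reads it was further from a call, at −0.26 ± 0.14 (limma, adjusted p 0.198).

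Klc1 ran from 110 to 163 with a median of 129 in DBA/2J and from 65.3 to 123 with a median of 109 in D2-Gpnmb+ (log2 fold change 0.37 ± 0.10, limma, adjusted p 0.109). Every DBA/2J library lay above the D2-Gpnmb+ median and 8 of 10 lay above its highest library. Kif3a ran from 60.3 to 99.8 in DBA/2J and from 38.2 to 73.3 in D2-Gpnmb+ (0.40 ± 0.11, limma, adjusted p 0.111). DESeq2 called both of these higher (adjusted p 0.0324 and 0.0332). It also called Kif2a lower (adjusted p 0.0405), with means of 192 ± 28.5 in DBA/2J and 238 ± 31.8 in D2-Gpnmb+ and a log2 fold change of −0.31 ± 0.09 (limma, adjusted p 0.136). All 10 DBA/2J libraries lay below the D2-Gpnmb+ median of Kif2a, and scaling to recovered reads moved its change to −0.05. Dync1i1 ran from 0.938 to 13.2 in DBA/2J and from 0.582 to 2.75 in D2-Gpnmb+ (0.91 ± 0.30, limma, adjusted p 0.183), and 6 of 10 DBA/2J libraries exceeded all of D2-Gpnmb+. DESeq2 gave Dync1i1 an unadjusted p of 0.000142 but no adjusted p, so it could not be called by DESeq2. Scaling to recovered reads moved the median log2 fold change of all genes to 0.24, so those values are relative to the deposited scaling. The amacrine and horizontal cell list had a median sum of 507 in DBA/2J and 276 in D2-Gpnmb+. Its median log2 fold change was 0.57 and no member was called. The cone list had a median sum of 1349.6 in DBA/2J and 2215 in D2-Gpnmb+, with a median log2 fold change of −0.66. Of its 8 members 1 was called lower (limma). The 11 rod markers had a median log2 fold change of −0.44 and none was called. The part of these lists in the values above was not tested.

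At 9 months DBA/2J on water was compared with D2-Gpnmb+, the comparison closest to the onset of disease. No motor gene passed the threshold here either. Of 51 tested members 0 were called (limma, 6 at an unadjusted p under 0.05), against 0.0218% of all 13755 genes, with 13.2% of all genes at the unadjusted level. EdgeR called 0 members and DESeq2 1, against 0.08% and 2.31% of all genes. The smallest adjusted p belonged to Kif21b, which ran from 168 to 404 with a median of 232 in DBA/2J and from 128 to 229 with a median of 182 in D2-Gpnmb+. In 13 of 25 DBA/2J libraries it exceeded every D2-Gpnmb+ library (log2 fold change 0.43 ± 0.12, limma, adjusted p 0.126), and DESeq2 called it (adjusted p 0.0280). Dynll1 averaged 56.1 ± 22.3 in DBA/2J (n = 25) and 35.7 ± 10.8 in D2-Gpnmb+ (n = 9), with 0.59 ± 0.21 (limma, adjusted p 0.197). The 11 rod markers had a median log2 fold change of 1.22, all at an unadjusted p under 0.05 (limma), and 0.12 within block 3. Microglia markers had a median of 1.46, Müller glia and astrocytes −0.37, and amacrine and horizontal cells −0.62. No member of these lists was called, and their part in the motor gene values was not tested. Within block 3, which holds 3 libraries of each strain at 9 months, Kif21b had 0.20 ± 0.15 and Dynll1 −0.22 ± 0.23, and 0 of 47 tested members were called (limma, 2 at an unadjusted p under 0.05, against 0% of all genes called and 6.36% at the unadjusted level).

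In D2-Gpnmb+, 9 months against 4 months gave no call among motor genes by limma. Of 48 tested members 0 were called (limma, 13 at an unadjusted p under 0.05), against 0.0232% of all 12910 genes and 30.3% at the unadjusted level. EdgeR called Dctn2 and Kif7 higher, against 11.6% of all genes called. DESeq2 called Dctn2, Kif3c and Kif7 higher and Kif24 and Kif2a lower, against 16.4% of all genes. Dctn2 averaged 33.1 ± 10.6 at 9 months (n = 9) and 22.2 ± 3.13 at 4 months (n = 10), with a log2 fold change of 0.50 ± 0.17 (limma, adjusted p 0.0832). Kif3c averaged 29.6 ± 5.93 at 9 months and 22.4 ± 4.47 at 4 months (0.39 ± 0.14, limma, adjusted p 0.0887). Without D2-Gpnmb+ 9-month replicate 13, limma called 8 members, against 15.9% of all genes, and without replicate 14 it called 3, against 8.18%, so the calls over all genes rose with those of the members. Within block 3 the change of Dctn2 was 0.07 ± 0.18 and 0 of 51 tested members were called (limma, 0 at an unadjusted p under 0.05), against 0% of all genes called and 4.68% at the unadjusted level. Scaling to recovered reads moved the median log2 fold change of all genes to 0.31. The Müller glia and astrocyte list had a median log2 fold change of 1.25, and −0.11 within block 3. Cones had −1.08, and −0.05 within block 3, and rods −0.75, and −0.60 within block 3. Amacrine and horizontal cells had −1.23, and 0.08 within block 3, and ganglion cells −0.58, and −0.44 within block 3. No member of these lists was called (limma), and their part in the motor gene values was not tested.

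Whether age acted differently in the strains was tested as an interaction, the age change of DBA/2J minus that of D2-Gpnmb+. Of 52 tested members 0 were called (limma, 7 at an unadjusted p under 0.05), against 0.375% of all 14150 genes and 12.9% at the unadjusted level. By this fit the age changes that passed in DBA/2J are not shown to differ from those in D2-Gpnmb+. With values scaled to recovered reads, 1 member, Kif3a, was called in the interaction (−1.03 ± 0.27, limma, adjusted p 0.0429), against 1.52% of all genes, and that scaling moved the median of all genes to −0.36. The largest of the core genes on the positive side were Dynll1 (0.83 ± 0.29, limma, adjusted p 0.155) and Kif21b (0.56 ± 0.16, limma, adjusted p 0.0784). On the negative side were Dync1i1 (−1.12 ± 0.45, limma, adjusted p 0.243), Kif3a (−0.66 ± 0.23, limma, adjusted p 0.155) and Kif3c (−0.66 ± 0.24, limma, adjusted p 0.173). DESeq2 called Dynll1 and Kif21b, against 2.07% of all genes, and edgeR called 0 members, against 0.297%. Within block 3 the interaction was 0.03 ± 0.31 for Dynll1, 0.33 ± 0.15 for Kif21b and −1.54 ± 0.64 for Dync1i1, and 0 members were called (limma, 5 at an unadjusted p under 0.05), against 0.0774% of all genes called and 8.29% at the unadjusted level.

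Ratios within families show the balance of paralogs in each library apart from the library's scale. They are given per kb of exon and without a test. Dync1i1 made up 18.7 ± 3.90% of the 2 dynein intermediate chains with nicotinamide, 5.08 ± 5.72% in 9-month DBA/2J on water, 6.13 ± 6.01% in 9-month D2-Gpnmb+, 17.9 ± 12.2% in 4-month DBA/2J and 7.14 ± 3.14% in 4-month D2-Gpnmb+. The 3 block 3 libraries of 9-month DBA/2J on water averaged 8.65 ± 8.63%. The ubiquitous Dync1i2 was the main intermediate chain in every group.

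Kif21a made up 75.9 ± 1.60% of Kif21a plus Kif21b with nicotinamide, 62.8 ± 8.02% in 9-month DBA/2J on water (69.0 ± 4.57% in block 3), 70.8 ± 6.32% in 9-month D2-Gpnmb+, 73.0 ± 3.52% in 4-month DBA/2J and 70.8 ± 2.70% in 4-month D2-Gpnmb+. The share with nicotinamide ran from 74.0% to 78.2% and that on water from 47.5% to 74.9%. Dynll1 was the larger part of the LC8 pair in 9-month DBA/2J on water alone, at 55.4 ± 10.5%, but in block 3 of that group it was 43.2 ± 3.42%. It was 40.9 ± 4.22% with nicotinamide, 44.7 ± 8.17% in 9-month D2-Gpnmb+, 42.3 ± 3.95% in 4-month DBA/2J and 43.8 ± 10.4% in 4-month D2-Gpnmb+. Kif5c was 51.5 ± 2.39% of kinesin-1 with nicotinamide and 44.1 ± 8.97% in 9-month DBA/2J on water, where block 3 gave 55.6 ± 5.75%. Klc1 was 71.3 ± 1.19% of the light chains with nicotinamide and 63.2 ± 8.67% on water, where block 3 gave 75.2 ± 2.97%. For the shares of Kif5c and Klc1, the mean of block 3 in 9-month DBA/2J lay further from that group's overall mean than the means of the other groups did.

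**Figure D4:**
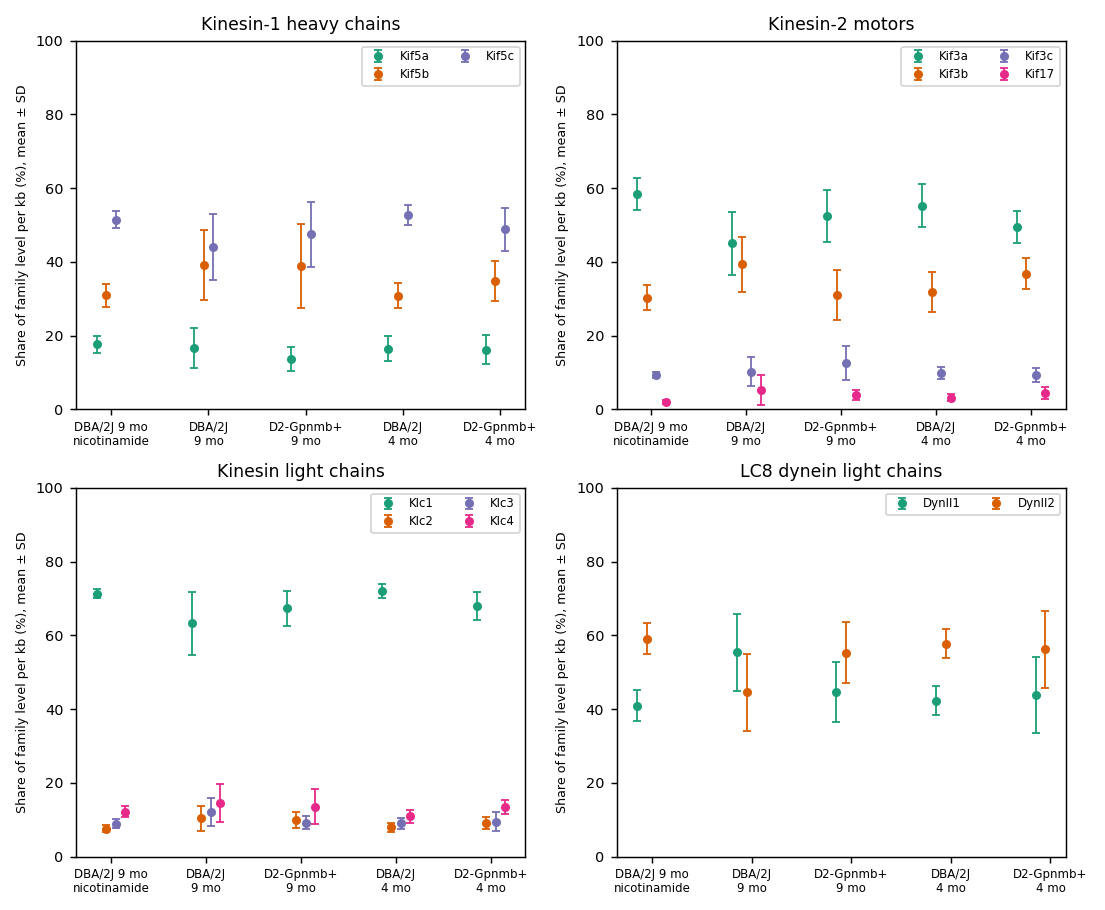
Share (%) of each paralog in the summed level per kb of exon of 4 motor families, as mean ± SD over the libraries of each group. Dynll1 lies above Dynll2 in 9-month DBA/2J on water only, at 55.4%, and Klc1 is the largest light chain in all 5 groups.

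Other genes of microtubule transport were counted from 3 further lists. With age in DBA/2J, 0 of 25 tested tubulins and microtubule-associated proteins were higher and 6 were lower (limma), with a median log2 fold change of −0.25 against 0.02 over all genes. Of all genes, 9.25% were higher and 13.2% lower. Its median within block 3 was −0.04. Among the 6 were Map1a (−0.89 ± 0.20, limma, adjusted p 0.00154), a stabiliser of neuronal microtubules, Dcx (−1.22 ± 0.28, limma, adjusted p 0.00209), the doublecortin of immature and some retinal neurons, and Tuba1a (−0.53 ± 0.14, limma, adjusted p 0.00664), a neuronal tubulin. Of 31 dynein regulators and cargo adaptors, 1 was higher and 2 were lower, and the lower ones were Kifap3, which joins cargo to Kif3a and Kif3b (−0.47 ± 0.12, limma, adjusted p 0.00413), and the dynactin subunit Actr10 (−0.74 ± 0.19, limma, adjusted p 0.00479). Of 25 intraflagellar transport genes, 3 were higher and 0 lower. Within block 3, 0 members of the 3 lists were called, against 0.263% of all genes. With age in D2-Gpnmb+, the median of the tubulin and microtubule-associated protein list was −0.41, and 0.005 within block 3. Over all libraries 0 of its 25 tested members were called (limma, 13 at an unadjusted p under 0.05). Of all genes 0.0232% were called there, and 30.3% passed at the unadjusted level. In the interaction the list had a median of 0.09, with 0 of 27 called, against 0.375% of all genes.

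With nicotinamide against water, 7 of 26 tubulins and microtubule-associated proteins were higher and 1 was lower (limma), against 9.78% and 5.34% of all genes, with a median log2 fold change of 0.30. The median of the list was −0.08 within block 3, of the opposite sign, and 0 of 25 were called there. Dcx averaged 8.27 ± 2.80 with nicotinamide and 0.988 ± 1.30 on water (2.39 ± 0.30, limma, adjusted p 1.52e-05), and within block 3 it had 1.49 ± 0.30 (limma, adjusted p 0.0715). Map1a averaged 51.3 ± 16.3 with nicotinamide and 25.2 ± 9.72 on water (1.03 ± 0.22, limma, adjusted p 0.00142). Kifap3, the partner of Kif3a, averaged 98.997 ± 14.4 with nicotinamide and 65.7 ± 16.4 on water (0.61 ± 0.14, limma, adjusted p 0.00249), but 0.09 ± 0.13 within block 3. Of 31 regulators 2 were higher and 0 lower, and of 25 intraflagellar transport genes 0 were higher and 1 was lower. Against 4-month DBA/2J, nicotinamide had 2 of 25 tubulins and microtubule-associated proteins higher and 2 lower, against 1.54% of all genes called. Those were Dcx (1.17) and Map1b (0.34) among the higher and Mapt (−0.33), which encodes tau, and Tubb6 (−0.74) among the lower, as log2 fold changes (limma, adjusted p 0.0453, 0.0385, 0.0422 and 0.0453).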

How the data were processed

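RNA was sequenced from sorted Thy1.2-positive cells in 61 libraries of 5 groups. Per the submitters' processing notes, TopHat2 2.0.7, Bowtie2 2.0.6, HTSeq and the build mm10 were used. Each deposited value is a signal, the gene's read count that the authors divided by a library size, on a scale near counts per 1000000. How the library size was set, and whether strand was used, is not given in the sources used here. In every library 100.0% of values were whole multiples of 1 step (tolerance 0.05), so reads were recovered. Of 15171 rows, 22 with date-like names were left out. Columns could be matched to groups, not to single samples. Nothing in the labels ties the libraries to different animals, and a p-value here rests on the scatter among libraries, which may be technical.

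Each comparison was fitted with limma 3.58.1 (R 4.3.3, trended and robust) on log2 of the value plus 1, using the compared groups alone and keeping genes that reached 1 in a number of libraries equal to the smallest group. P-values were adjusted by Benjamini-Hochberg over all genes tested, with a threshold of 0.05. Alternatives were pseudocounts of 0.5 and 2, no filter, scaling to recovered reads, edgeR 4.0.16 and DESeq2 1.42.0 on the reads, block as a covariate, block 3 alone, and leaving out each library. Within block 3, libraries were left out only from the 9-month groups on water. In some comparisons DESeq2 gave members of low value no adjusted p, and it could not call these. On the recovered reads edgeR called 3160 genes for age in DBA/2J, 2275 for nicotinamide against water, 36 and 11 for strain at 4 and 9 months, 1495 for age in D2-Gpnmb+, 207 for nicotinamide against 4 months and 42 for the interaction. The fits were tested on simulated data for strain at 4 months alone. Those data held no difference between blocks, so they do not bear on comparisons that span blocks. Exon lengths and coordinates came from GENCODE M21 and promoters from RefSeq, both on GRCm38.

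Named genes were a core of 18 members, members called in a comparison (up to 10 per direction) and every member called in the interaction. The members, lists and core were chosen with earlier results of these data known.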

Additional observations from a re-analysis of the deposited data

Results flagged for a closer look

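Among 21 named members, 84 sets of values (one gene in one group of 7 to 10 libraries) were searched for a library far from the others, and 4 were found, about the 1 in 20 that chance gives. Dynll1 held 43.15 in nicotinamide replicate 5, where the next highest library held 32.99. Kif3a held 119.2 in 9-month D2-Gpnmb+ replicate 8, where the next highest held 77.64. In 4-month D2-Gpnmb+ replicate 10, Dynll2 held 62.24 and Dctn2 held 29.52, where the next highest libraries held 36.93 and 24.34.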

How the results depend on the processing

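Every motor gene called for age in DBA/2J or for nicotinamide against water kept its direction under pseudocounts of 0.5 and 2, no filter, scaling to recovered reads, edgeR and DESeq2. Some calls were lost: edgeR lost Kif5c for nicotinamide (adjusted p 0.0632) and Kif4 for age (0.0588), and scaling to recovered reads (limma) lost Kif21b for nicotinamide (0.127) and Kif16b and Kif21b for age (0.132 and 0.195). With block as a covariate, and within block 3 alone, 0 motor genes were called in either comparison. Within block 3, 0.263% of all genes were called for age and 0.00749% for nicotinamide. The share with block as a covariate is not given here, so these 0 calls are not a result about motor genes. All nicotinamide and 4-month libraries lie in block 3, so both settings take the same fold change from block 3 alone. There Kif5c turned sign, to 0.12 for age and −0.054 for nicotinamide. The cause was not tested. Leaving out 1 library gave 6 to 11 calls for age in DBA/2J, 5 to 8 for nicotinamide against water (0 to 1 within block 3), 0 to 1 for nicotinamide against 4 months, 0 to 1 for strain at 4 months, 0 to 8 for age in D2-Gpnmb+ and 0 to 1 for the interaction. Apart from age in D2-Gpnmb+ without replicate 13 or 14, the shares of all genes in these fits are not given here. EdgeR called 1 motor gene for strain at 4 months and 2 for age in D2-Gpnmb+. DESeq2 called 4 for strain at 4 months, 1 at 9 months, 5 for age in D2-Gpnmb+ and 2 for the interaction. Scaling to recovered reads gave 1 in the interaction, Kif3a. No paired analysis was possible because the columns carry no numbers that link libraries across groups. Depth limits Dync1i1, with a median of 13 reads, and Kif19a, with 1, more than Kif1a, with 8120.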
